A study of Mus musculus with 3 samples.

Results

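Chek1, Mdm2, Mdm4, Palb2, Rrm2b and Timeless form a small group of DNA damage checkpoint and p53 control genes, taken by symbol from the deposited table. They were 6 of its 6104 gene symbols and held 14 of its 9126 RefSeq transcripts. RNA came from metaphase II oocytes of ICR mice, matured in culture for 16 to 18 h in M16 medium, and each library pooled 20 oocytes from 4 mice. There were 3 libraries, 1 per group: aged oocytes, young oocytes, and a further set of aged oocytes matured in M16 mixed 1 to 1 with medium conditioned by mesenchymal stem cells of human umbilical cord, the secretome (the aged-sec library). The labels do not state the ages of the mice. The labels' treatment field names the secretome on all 3 samples, and the groups were taken from the titles.

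Levels are in TPM, a transcript's share of the library in parts of 1000000. They are scaled for transcript length and can be compared between genes. The table holds only transcripts whose aged over young ratio was at least 1.2, and its rows made up 22.9% of all TPM in the young, 32.5% in the aged and 32.1% in the aged-sec library. An aged value above the young one was therefore fixed for every transcript by how the table was made. A transcript with a high aged value by chance enters such a table more easily and then lies lower in the next library, so aged-sec values below aged ones are favoured too. A low young value by chance eases entry in the same way, so aged-sec values above young ones are favoured as well. With 1 library per group, no value has a replicate error, no test was made, and each difference is one between libraries. TPM keeps no read number, so depth is unknown. In pooled oocytes, fewer cells with an mRNA and less of it per cell cannot be told apart.

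When DNA is broken or a replication fork stalls, the sensor kinases ATM and ATR switch on the checkpoint kinases, among them CHK1, the product of Chek1, which hold the cell cycle by keeping cyclin-dependent kinases inactive. The transcription factor p53 acts alongside, and MDM2 and MDM4 keep it low in undamaged cells. Oocytes keep large stores of maternal mRNA while transcription is silent, and DNA damage responses guard the quality of the egg.

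Short stretches at which the coding parts of variants differ are shown because the listed level of Timeless, Mdm4 and Palb2 is the level of such variants. Variants can also differ outside the coding part: the paired Mdm4 transcripts are between 1914 and 7105 bases long, and their coding parts 1467 or 1470 bases. GENCODE release M21 (GRCm38) paired 11 of the 14 variants with its own transcripts, from which the sequences were read. Timeless, on the plus strand of chromosome 10, has the start of its coding exon 23 at 2 places that lie 3 bases apart (chr10:128250285-128250462 or chr10:128250288-128250462). Only the first form, NM_001164081, was listed, and its 3 additional bases, in capitals, are coding bases 2854 to 2856, counted from the A of the start codon:
Timeless NM_001164081: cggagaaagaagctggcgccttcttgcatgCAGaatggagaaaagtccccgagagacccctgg
Timeless NM_001136082: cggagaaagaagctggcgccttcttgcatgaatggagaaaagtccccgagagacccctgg

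Mdm4, on the minus strand of chromosome 1, has the same kind of choice at its coding exon 2 (chr1:133012637-133012714 or chr1:133012637-133012711). The 3 additional bases, in capitals, are coding bases 79 to 81, and both forms were listed:
Mdm4 NM_001302802: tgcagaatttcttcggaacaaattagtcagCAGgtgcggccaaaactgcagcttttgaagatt
Mdm4 NM_008575: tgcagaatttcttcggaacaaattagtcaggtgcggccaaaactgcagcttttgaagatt

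Palb2, on the minus strand of chromosome 7, has 2 listed variants with different coding ends, shown to tell which protein end the listed level belongs to. The stretch begins with 30 shared bases, and the capitals mark the first bases of coding exon 12 (chr7:122110682-122110830 in NM_001081238 and chr7:122111636-122111770 in NM_001289842), where the variants part:
Palb2 NM_001081238: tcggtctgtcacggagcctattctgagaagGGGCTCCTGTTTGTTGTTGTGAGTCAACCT
Palb2 NM_001289842: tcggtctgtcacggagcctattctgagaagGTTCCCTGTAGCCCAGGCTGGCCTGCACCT

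Summed over listed variants, the genes formed an abundant pair, a middle pair and a low pair. Chek1 and Mdm4 were the abundant pair, Rrm2b and Mdm2 stood between, and Palb2 and Timeless were low. The order was the same in the 3 libraries except at the top, where Chek1 led in young and aged-sec oocytes and Mdm4 led in aged ones. Without replicates it cannot be said which neighbours in this order differ beyond their spread. Each sum covers listed variants only: RefSeq (GRCm38.p6) names 2 mRNAs of Chek1, 4 of Mdm2, 6 of Mdm4, 6 of Palb2, 4 of Rrm2b and 10 of Timeless, of which 1, 2, 5, 2, 3 and 1 were listed. The others were not analysed here, so the sums are not whole gene levels.

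**Figure D1:**
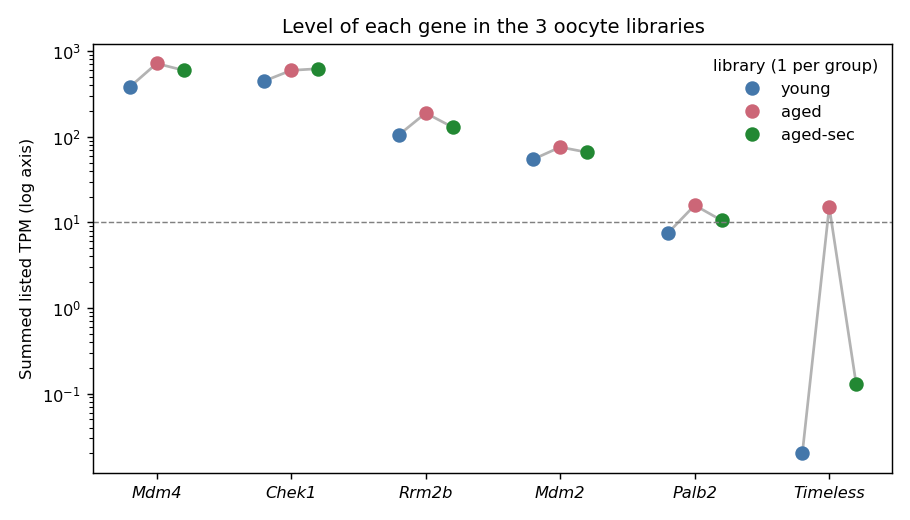
Summed listed TPM (log axis) of the 6 genes, 1 point per library (young, aged, aged-sec) joined by grey lines, with a dashed line at 10 TPM. Timeless alone spans the axis, from 0.02 TPM in young to 15.2 TPM in aged oocytes, while the other 5 genes stay within a narrow band each.

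A difference was counted as large when the log2 ratio, with 0.5 TPM added to both values, was at least 1 in size and the higher library reached 10 TPM. This size rule is a description of the libraries and not a test. Between aged and young oocytes, 2 of the 6 genes met it, Palb2 and Timeless, both higher in aged oocytes. Of all 1901 listed genes with enough TPM, 16.7% met it, and the direction was fixed by the table. Between aged-sec and aged oocytes, Timeless met it on the lower side, where 2.18% of 1931 listed genes did, and 0 of the 6 genes met it on the higher side, where 0.155% did. Between aged-sec and young oocytes, 0 of the 5 genes with enough TPM met it, against 14.3% of 1750 listed genes on the higher side and 0.343% on the lower. The 3 comparisons share libraries and are not independent of each other.

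Chek1 encodes the kinase CHK1, which carries the ATR signal to the cell cycle engine. Its listed variant (NM_007691) stood at 447.94 TPM in the young, 596.53 TPM in the aged and 623.22 TPM in the aged-sec library. The young library was thus the lowest and the aged-sec library the highest. The aged over young log2 ratio was 0.41, below the medians of 0.50 over all listed genes and 0.59 over those with enough TPM. It was −0.38 under median-of-ratios scaling. This divides each library by the median ratio of its listed transcripts to their geometric means over the libraries. That scaling moved the median over all listed genes from 0.50 to −0.02 for aged over young. For aged-sec over aged the median moved from −0.20 to 0.0012. The factors came from all listed transcripts, each selected for aged over young of at least 1.2. The median aged over young ratio was 1.71 over these and 1.48 over those with enough TPM. The scaling thus lowers aged over young ratios by construction, and by more than the common excess of genes with enough TPM. A scaled sign therefore cannot show in which library a gene was higher. Chek1 was the only one of the 6 genes whose sum was higher in the aged-sec than in the aged library, by a log2 ratio of 0.06. Over all listed genes, 73.9% were lower in the aged-sec than in the aged library.

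Timeless encodes a fork protection protein that works with TIPIN and helps to activate CHK1 at stalled forks. The listed variant, with the additional CAG shown above, stood at 0.02 TPM in the young, 15.2 TPM in the aged and 0.13 TPM in the aged-sec library. Only the aged library held an appreciable level. The log2 ratio was 4.92 for aged over young and −4.64 for aged-sec over aged, with 0.5 TPM added. Without that addition the aged value was 760 times the young one, a figure that the 2 decimals of the table allow to lie between 608 and 1014, and it was 117 times the aged-sec one (113 to 122). These limits cover rounding only. Of all listed genes with enough TPM, 5 of 1901 had a larger aged over young log2 ratio, and 1 of 1931 had a lower aged-sec over aged one. Both placings rest on the same aged value, through which alone Timeless had enough TPM, and on the 0.5 TPM added.

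The other 9 annotated mRNAs of Timeless were not analysed here. Among them are NM_001136082, whose coding part lacks the CAG, and NM_011589, to which GENCODE gives the same coding exons as the listed one. A quantification program divides reads among variants that share most of their bases, so 15.2 TPM is uncertain as the level of a single form. Whether the level of Timeless as a gene differed between libraries was not tested. Tipin, the partner gene, stood at 46.29 TPM in the young, 62.34 TPM in the aged and 59.00 TPM in the aged-sec library, with no such peak in the aged library.

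Mdm2 encodes the ubiquitin ligase that marks p53 for destruction and is itself a p53 target. Its 2 listed variants summed to 54.6 TPM in the young, 75.67 TPM in the aged and 65.82 TPM in the aged-sec library. The aged-sec sum lay between the others. The log2 ratio was 0.47 for aged over young, which became −0.32 under median-of-ratios scaling, and −0.20 for aged-sec over aged, which became 0.09. Beside them, the medians over listed genes with enough TPM were 0.59 and −0.19, and 1248 of 1901 such genes had a larger aged over young ratio than Mdm2.

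The variants of Mdm2 differed in their course. NM_001288586 stood at 28.88, 43.21 and 41.34 TPM across the young, aged and aged-sec libraries. NM_010786 stood at 25.72, 32.46 and 24.48 TPM in the same order. The first kept its level in the aged-sec library near that of the aged one, and the second was at about its young level there. As a result the share of NM_001288586 in the sum was 52.9% in the young, 57.1% in the aged and 62.8% in the aged-sec library. Both are paired with a single GENCODE transcript with a coding length of 1467 bases, so no difference in their protein is given by that annotation. How the reads were divided between these variants was not tested, so their separate levels and shares are uncertain.

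Mdm4 encodes a relative of MDM2 that binds p53 and blocks its activity as a transcription factor. Its 5 listed variants summed to 380.99 TPM in the young, 717.62 TPM in the aged and 597.53 TPM in the aged-sec library. The aged library was the highest and the young one the lowest. The aged over young log2 ratio was 0.91, short of the size rule. It was above the medians of 0.50 over all listed genes and 0.59 over those with enough TPM, of which 394 of 1901 had a larger one. Under median-of-ratios scaling the Mdm4 ratio was 0.12. Against aged oocytes the aged-sec log2 ratio was −0.26, which became 0.03 under that scaling. Listed Mdm4 mRNA exceeded listed Mdm2 mRNA 6.98 times in the young, 9.48 times in the aged and 9.08 times in the aged-sec library.

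The most abundant Mdm4 variant was NM_001302802, with the additional CAG, at 238.37 TPM in the young, 448.30 TPM in the aged and 367.37 TPM in the aged-sec library. NM_001302803, without it, stood at 91.10, 141.51 and 127.93 TPM. NM_008575, also without it, stood at 47.25, 118.19 and 91.20 TPM. All of these had the aged library highest and the young library lowest. NM_008575 was the Mdm4 variant that met the size rule, with an aged over young log2 ratio of 1.31, as 18.2% of 2186 listed transcripts did. The remaining pair, NM_001302804 and the predicted XM_006529233, stayed between 1.34 and 7.66 TPM.

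Grouped by the 3-base choice, the form with the CAG held 63.1% of the paired Mdm4 variants' TPM in the young, 63.0% in the aged and 62.3% in the aged-sec library. The share was thus nearly the same in each library while the level differed. The variants compared also differ outside the coding part, so the share is not a measure of the 3-base choice alone. Here 1 variant carried the CAG, 3 lacked it, and XM_006529233 had no GENCODE pair. NM_001302801, which GENCODE pairs with the same transcript as NM_001302802, was not analysed here.

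**Figure D2:**
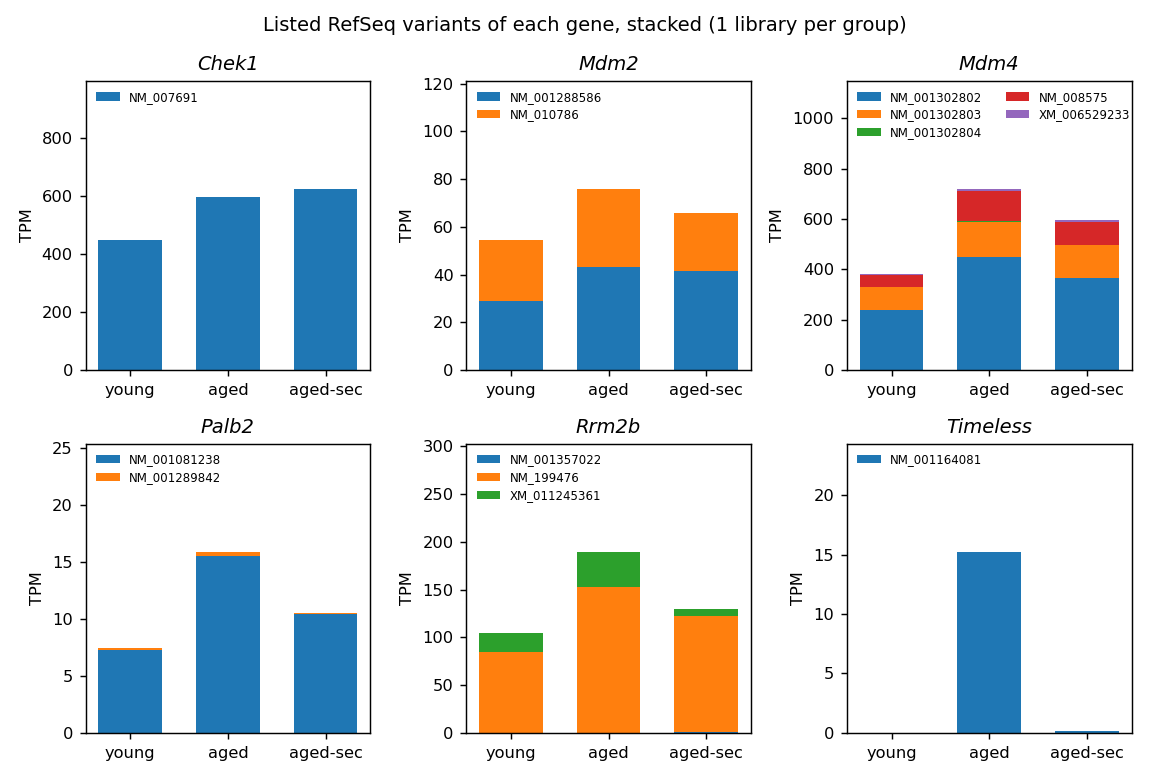
TPM (linear axes from 0, a different scale for each gene) of the listed variants, stacked within each library of young, aged and aged-sec oocytes. The predicted Rrm2b variant stands at 19.91 TPM in the young, 36.84 TPM in the aged and 7.72 TPM in the aged-sec bar. Timeless shows in the aged library at 15.2 TPM.

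Rrm2b encodes p53R2, the p53-inducible small subunit of ribonucleotide reductase, which supplies deoxynucleotides for repair and for mitochondrial DNA outside S phase. Its 3 listed variants summed to 104.93 TPM in the young, 189.11 TPM in the aged and 129.54 TPM in the aged-sec library. The aged-sec sum was nearer to the young one as deposited. The log2 ratios were 0.85 for aged over young and −0.54 for aged-sec over aged, and neither met the size rule. Under median-of-ratios scaling they became 0.06 and −0.25, and the aged-sec value then lay below both others, at −0.20 against young.

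The main Rrm2b variant, NM_199476, stood at 84.90 TPM in the young, 152.12 TPM in the aged and 121.31 TPM in the aged-sec library. The predicted variant XM_011245361 stood at 19.91, 36.84 and 7.72 TPM. It was lower in aged-sec than in either of the other libraries. Its log2 ratio was −2.18 against aged and −1.31 against young oocytes, and it met the size rule on the lower side in both comparisons, as 2.95% and 0.45% of listed transcripts did. The ratio against aged was lower in 14 of 2239 listed transcripts. Its share of the Rrm2b sum was 19.0% in the young, 19.5% in the aged and 5.96% in the aged-sec library. The third, NM_001357022, was near the floor at 0.12, 0.15 and 0.51 TPM.

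Without the predicted variant, the Rrm2b log2 ratio of aged-sec over aged was −0.32 in place of −0.54, and that of aged-sec over young was 0.52 in place of 0.30. The aged-sec level was then nearer to the aged one, so its nearness to young rested on the predicted variant. The predicted variant has no GENCODE pair, so its exons were not compared with those of the curated variants. The way the reads were divided among the variants was not tested.

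Palb2 encodes the scaffold that joins BRCA1 to BRCA2 in the repair of broken DNA. Its sum was 7.48 TPM in the young, 15.84 TPM in the aged and 10.54 TPM in the aged-sec library. The aged library was the highest and the aged-sec library lay between. The aged over young log2 ratio of 1.03 met the size rule by a narrow margin and no longer did with 1 TPM added in place of 0.5 (1 of the 6 genes then met it). Under median-of-ratios scaling, which lowers these ratios by construction, the aged over young ratio was 0.28 and no longer met the rule. The aged-sec over aged log2 ratio was −0.57, and 218 of 1931 listed genes with enough TPM had a lower one.

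Nearly all of the listed Palb2 level belonged to NM_001081238, with the coding end of 357 bases beyond the shared part. It stood at 7.24 TPM in the young, 15.48 TPM in the aged and 10.41 TPM in the aged-sec library. NM_001289842, whose other coding end has 135 bases, stood at 0.24, 0.36 and 0.13 TPM. The share of NM_001081238 in the sum was 96.8% or more in each library.

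**Figure D3:**
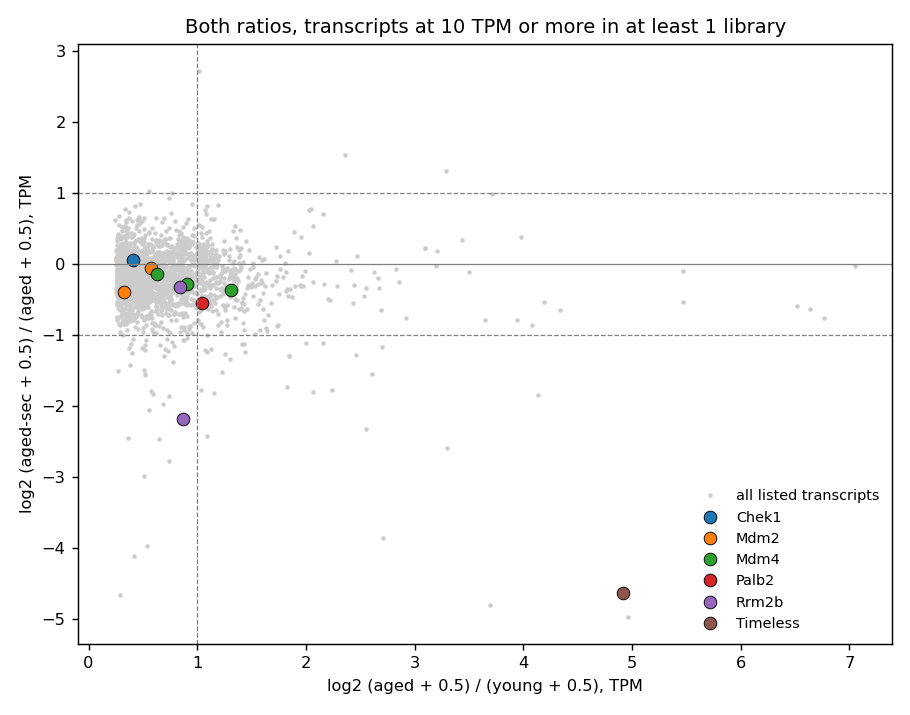
Each point is 1 listed transcript with at least 10 TPM in at least 1 library, placed by its log2 aged over young ratio (horizontal) and its log2 aged-sec over aged ratio (vertical), with 0.5 TPM added. Dashed lines mark a log2 ratio of 1 in size, and variants of the 6 genes are coloured. Timeless lies far to the lower right at 4.92 and −4.64, the predicted Rrm2b variant lies low at −2.18, and the other coloured points lie within the grey mass.

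Over the 14 variants, 3 met the size rule between aged and young oocytes (of Mdm4, Palb2 and Timeless), where 10 had enough TPM, against 18.2% of listed transcripts. Between aged-sec and aged oocytes 2 met it, both lower (of Rrm2b and Timeless), and 0 were higher, against 2.95% and 0.223% of listed transcripts. Between aged-sec and young oocytes 0 of the 9 with enough TPM were higher by the rule, against 17.1%, and 1 was lower (of Rrm2b). Of the 14, 10 were lower in the aged-sec than in the aged library, against 70.6% of all listed transcripts. Summed by gene, 5 of 6 were lower. The median log2 ratio of aged-sec over aged was −0.40 over the 6 genes, −0.20 over all listed genes and −0.19 over those with enough TPM. That of aged over young was 0.88, 0.50 and 0.59 in the same order. All 6 genes had enough TPM in both comparisons. The 6 sums were all higher in aged-sec than in young oocytes as deposited, which under median-of-ratios scaling no longer held for Chek1, Mdm2, Palb2 and Rrm2b. Of all listed genes, only 20.8% were lower in aged-sec than in young oocytes, a direction that the selection of the table disfavours.

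The genes most like each member were sought among listed genes with a mean of at least 10 TPM, by the distance between their pairs of log2 ratios (aged over young, and aged-sec over aged) over the 3 libraries. Nearest to Chek1 were Dzip3 and Zfp131, at distances of 0.0089 and 0.013. For Mdm2 they were Abhd11 and Casp8ap2 (0.011 and 0.012), for Mdm4 Nbr1 and Cct2 (0.011 and 0.019), for Palb2 Fut8 and Ralgps2 (0.048 and 0.061), and for Rrm2b Taf1b and Glce (0.024 and 0.032). There were 1617 candidates for each of these 5. Timeless had no near neighbour among its candidates: Hddc3 and Jak2 were nearest, at distances of 2.34 and 2.64. Its own mean of 5.12 TPM lay below the limit, which left out genes of a like level. Atad2, at 0.01 TPM in the young, 15.42 TPM in the aged and 0.01 TPM in the aged-sec library, was therefore not a candidate.

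The other genes of the pathway were followed through 7 lists, which name 205 genes besides the 6. Of these, 99 had a listed transcript. On gene sums, 8 of the 42 with enough TPM met the size rule between aged and young oocytes (19.0%, against 16.7% of all listed genes). Between aged-sec and aged oocytes 1 of 43 did, on the lower side (2.33%, against 2.18%). Their median log2 ratios were 0.50 and −0.24, beside 0.50 and −0.20 over all listed genes. These shares were close to those of the whole table.

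Among checkpoint sensors and kinases, 19 of 32 were listed and 6 reached 10 TPM in some library. None besides Timeless met the size rule between aged and young, or between aged-sec and aged oocytes. Of all listed genes with enough TPM, 16.7% met it in the first comparison, and 2.18% on the lower side in the second. Hus1, a subunit of the clamp that loads at damaged DNA, stood at 5.99 TPM in the young, 10.81 TPM in the aged and 12.54 TPM in the aged-sec library. Between aged-sec and young oocytes Hus1 met the rule on the higher side, as 14.3% of listed genes with enough TPM did. Wee2, the oocyte kinase that restrains cyclin-dependent kinase 1, stood at 249.54, 333.23 and 272.57 TPM. It was the most abundant listed gene of this list after Chek1.

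Of the p53 family and its regulators, 15 of 32 were listed and 8 reached 10 TPM in some library. Of the 8, 2 met the size rule between aged and young oocytes, beside 16.7% of all listed genes with enough TPM. They were Trim24, a ubiquitin ligase for p53, at 13.61, 29.13 and 27.15 TPM across the young, aged and aged-sec libraries, and Crebbp, a histone acetyltransferase that also acts on p53, at 12.36, 36.52 and 27.65 TPM. Both stayed nearer to aged than to young in the aged-sec library. Npm1, a nucleolar protein that binds MDM2, was the most abundant at 893.96, 1208.85 and 1237.59 TPM, a value that is uncertain because the gene has many near-identical processed pseudogenes.

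Of 35 textbook p53 targets 13 were listed, and the levels of the rest were not analysed here. Of the 13, 3 reached 10 TPM in some library, 2 of them Mdm2 and Rrm2b. The third, Trp53inp1, which encodes a stress-induced p53 partner, stood at 5.25 TPM in the young, 11.16 TPM in the aged and 16.63 TPM in the aged-sec library. It met the size rule between aged and young and between aged-sec and young oocytes. On the higher side, 16.7% and 14.3% of all listed genes with enough TPM did so. Its order over the libraries differed from that of Rrm2b, with the highest value in aged-sec oocytes.

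Among homologous recombination genes, 19 of 40 were listed and 10 reached 10 TPM in some library. Of the 10, Palb2 and Brcc3 met the size rule between aged and young oocytes, beside 16.7% of all listed genes with enough TPM. Brcc3, the deubiquitinase of the BRCA1-A complex, stood at 12.88 TPM in the young, 111.86 TPM in the aged and 66.68 TPM in the aged-sec library. Abraxas1, the scaffold of that complex, stood at 60.99, 87.65 and 64.56 TPM. Of the 19, 16 were lower in the aged-sec than in the aged library, with a median log2 ratio of −0.36. Beside them, 73.9% were lower and the median was −0.20 over all listed genes. None met the size rule there, against 2.18% of listed genes with enough TPM on the lower side and 0.155% on the higher.

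Replication fork and origin genes had 26 of 40 listed, of which 16 reached 10 TPM in some library. Of these, 4 met the size rule between aged and young oocytes, beside 16.7% of all listed genes with enough TPM. Besides Timeless they were Orc3, a subunit of the origin recognition complex (12.22, 34.97 and 29.46 TPM across the young, aged and aged-sec libraries), Rfc1, the large subunit of the clamp loader (18.35, 38.29 and 35.28 TPM), and Pold1, the catalytic subunit of DNA polymerase delta (5.57, 11.85 and 12.81 TPM). Unlike Timeless, these 3 had aged-sec values close to the aged ones. The most abundant were Orc6, at 960.81, 1228.21 and 1423.29 TPM, and Orc5, at 396.07, 495.68 and 411.73 TPM.

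Of the enzymes of deoxynucleotide supply, 7 of 18 were listed and 6 reached 10 TPM in some library. Samhd1, which breaks deoxynucleotides down, met the size rule between aged and young oocytes at 10.69, 24.76 and 19.32 TPM across the young, aged and aged-sec libraries. In that comparison 16.7% of all listed genes with enough TPM met it. Tk1, the cytosolic thymidine kinase, stood at 9.19, 13.39 and 4.21 TPM. It met the rule on the lower side between aged-sec and aged oocytes, as 2.18% of listed genes with enough TPM did. Dctd, deoxycytidylate deaminase, stood at 92.43, 120.10 and 82.14 TPM, and with Rrm2b it was the most abundant of this list. Fanconi anaemia and crosslink repair genes had 12 of 22 listed, of which 4 reached 10 TPM in some library, and none of these met the size rule in any comparison. A count of 4 is too small to set against the 16.7% of all listed genes. Mad2l2, a subunit of polymerase zeta, stood at 26.05, 43.40 and 31.30 TPM, and Usp1, which removes ubiquitin from FANCD2, at 11.84, 20.09 and 15.70 TPM.

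**Figure D4:**
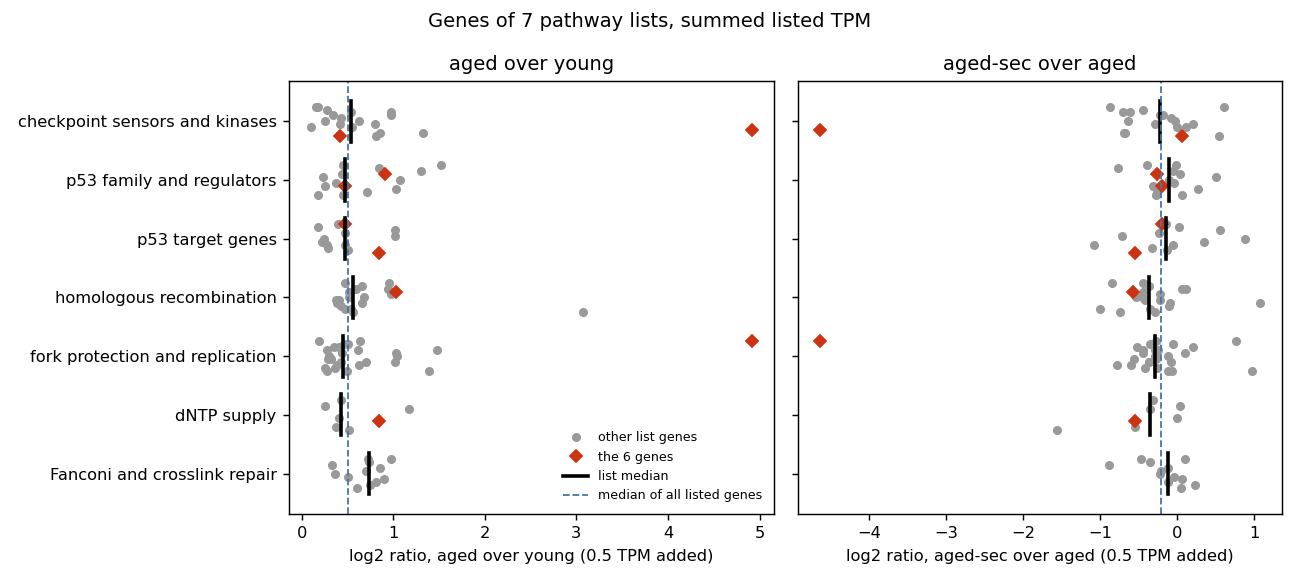
Log2 ratios (0.5 TPM added) of the listed genes of 7 pathway lists, for aged over young on the left and aged-sec over aged on the right. Red diamonds are the 6 genes, grey points the other list genes, black bars the list medians, and the dashed line the median over all listed genes. The list medians run from 0.43 to 0.73 on the left and from −0.36 to −0.10 on the right, and Timeless stands apart from its lists at 4.92 and −4.64.

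The labelled cell type was checked with marker lists, of which only the listed part could be read. Of 19 oocyte markers 4 were listed, with a summed level of 628.95 TPM in the young, 885.95 TPM in the aged and 850.85 TPM in the aged-sec library. Of 18 markers of cumulus and granulosa cells 4 were listed, with a summed level of 3.30, 6.59 and 4.81 TPM. Theca and stroma markers (4 of 8 listed) summed to 2.38, 4.42 and 3.38 TPM, and blood and immune markers (1 of 10) to at most 0.02 TPM. The sums of the first 3 lists had the same order over the libraries as those of Mdm2, Mdm4, Palb2, Rrm2b and Timeless. That order is common in the table, whose selection fixed aged above young. Of all listed genes, 73.9% had an aged-sec sum below the aged one, and 20.8% below the young one. Bmp15 held most of the oocyte sum, at 585.06, 816.67 and 799.03 TPM, and Gdf9 had the same order. Kit was highest in the aged-sec library (26.85 TPM), and Zp2 stood at 20.51 TPM there against 20.52 TPM in the young. What part the marker lists had in the results was not tested.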

How the data were processed

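The deposited table gives TPM per RefSeq transcript for each of the 3 libraries, per the file headers, under a name that speaks of counts. Its 2 other columns are the authors' ratios (aged to young, and aged-sec to aged), per the file headers. They match quotients of the TPM within a relative 6.6e-07. All 9126 rows are mRNAs, 0 values are zero, and the lowest deposited ratio of aged to young is 1.2. Complementary DNA was made with SMART-Seq2 and libraries with a transposon method, per the labels' protocols. Aligner, genome build and quantification program were not given in the sources used here.

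TPM of listed variants were summed by symbol. Log2 ratios had 0.5 TPM added, and the size rule asked for a 2-fold difference on that scale and 10 TPM in the higher library. From each list, every gene under the size rule on gene sums in some comparison and the 2 with the highest mean TPM were named, as were the 2 nearest genes of each member (predicted gene, Rik and pseudogene names left out). The members and lists were chosen with earlier results of these data known. Variant structures came from GENCODE M21. Alternatives were other pseudocounts, filters, folds, variant choices and scalings. Python 3.11.15, pandas 2.3.3, numpy 2.4.6 and matplotlib 3.10.9 were used. Depth is unknown, and precision is limited by 1 library per group.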

Additional observations from a re-analysis of the deposited data

How the results depend on the processing

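No paired analysis was possible because each group has 1 library, and for the same reason no library could be left out. Between aged and young oocytes, the 2 genes under the size rule (Palb2 and Timeless) became 1 (Timeless) with 1 TPM added and under median-of-ratios or upper-quartile scaling of the listed transcripts, and 4 (with Mdm4 and Rrm2b) at a fold of 1.5. Between aged-sec and aged oocytes the count stayed at 1 (Timeless) under the 11 alternatives run. Between aged-sec and young oocytes it was 0, or 1 (Mdm4) at a fold of 1.5.

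Of 144 log2 ratios of single genes recomputed, 126 moved by less than 1.5-fold, and 15 changed sign. The 15 were of Chek1, Mdm2, Mdm4, Palb2 and Rrm2b, all under the 2 scalings, and none was a ratio that met the size rule. Both scalings take their factors from listed transcripts alone, which were selected for aged over young of at least 1.2. They lower aged over young ratios by construction, so they cannot stand for a scaling of whole libraries. Over all listed genes, the count under the size rule between aged and young oocytes went from 318 to 34 with median-of-ratios scaling and to 35 with upper-quartile scaling, to 203 with curated transcripts only, to 812 at a minimum of 1 TPM, to 849 with no filter on low values and to 955 at a fold of 1.5. Between aged-sec and aged oocytes the 3 higher and 42 lower genes became 7 and 18, or 6 and 18, under the scalings. They became 21 and 285 at 1 TPM, 21 and 302 with no filter, and 20 and 205 at a fold of 1.5. Between aged-sec and young oocytes the 251 higher and 6 lower became 51 and 20, or 49 and 24, under the scalings, 568 and 41 at 1 TPM, 599 and 45 with no filter, 153 and 5 with curated transcripts only, and 614 and 8 at a fold of 1.5. Low levels limit Timeless most: its aged over young log2 ratio was 9.57 with nothing added, 6.99 with 0.1 TPM and 3.99 with 1 TPM.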

Other observations

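The course of Timeless over the libraries, at 10 TPM or more in a single library and under 1 TPM in the others, was looked for in the whole table after its values were seen. Of 2186 listed transcripts at 10 TPM or more in aged oocytes, 2 showed it: Timeless (NM_001164081) and Atad2 (NM_027435), a bromodomain ATPase of chromatin, at 0.01 TPM in the young, 15.42 TPM in the aged and 0.01 TPM in the aged-sec library. RefSeq names 1 mRNA of Atad2, against 10 of Timeless. For the young and the aged-sec library the count was 0, and for the young library the selection of the table leaves no other result. The opposite course, under 1 TPM in a single library and at 10 TPM or more in the others, was held by 8 transcripts for the young and 2 for the aged-sec library. For the aged library the count was 0, which the selection of the table fixed. That selection also favours transcripts low in the young library, so these counts cannot be set against each other.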
